A study of Mus musculus with 12 samples.

Results

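Mitochondrial respiratory chain genes were described across 12 arrays of CD4+ T cells from mice. They were all genes whose symbol in the array's probe annotation begins with Nduf, Uqcr or Cox4 to Cox8, together with Sdha, Sdhb, Sdhc, Sdhd, Cyc1 and Cycs. Probe sets naming a single gene were kept, and the brightest over the 12 arrays stood for each gene. This gave 75 of 18193 named genes. The rule uses symbols and brightness over all arrays, and it was set with earlier results of these data known. Of these, 42 belong to complex I, 4 to complex II, 9 to complex III and 19 to complex IV, and Cycs is cytochrome c.

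The study is about Th17 cells, the IL-17-producing helper T cell lineage, and had 4 groups of 3 arrays, all from female mice. SKG cells came from mice of BALB/c background that carry a point mutation of Zap70, a kinase of T cell receptor signalling, and that are a model of autoimmune arthritis. SKG and BALB cells were CD4+ cells lacking folate receptor 4, taken from lymph node at 40 weeks and labelled as treated with PMA and ionomycin, which activate T cells without the receptor. BALB replicate 1 differs, since its labels give CD4+ cells of spleen and lymph node without that receptor sort. IFNg arrays hold spleen cells at 7 weeks and 7 days after CD4 T cells of IFNg knockout BALB/c mice were put into RAG2 knockout BALB/c hosts. IL6 arrays are alike, except that donors lacked IL-6 and hosts lacked both IL-6 and RAG2. RAG2-deficient hosts have no T or B cells of their own but keep their myeloid cells. No transfer of unmodified cells was analysed here, donor and host genotype change together, and the labels give no stimulation for the transfer groups. The labels do not tell whether replicates were separate mice, so each p-value reflects array-to-array spread, and that spread may be technical.

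The respiratory chain of the inner mitochondrial membrane passes electrons from NADH (complex I) and succinate (complex II) through complex III and cytochrome c to oxygen at complex IV. Complexes I, III and IV pump protons, and the gradient drives ATP synthase. Activated T cells are known to increase mitochondrial mass and respiration along with glycolysis. All genes described are nuclear; the mitochondrial genome's own subunits are no members.

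Values are log2(intensity + 16) after quantile normalization, and the added 16 understates the change of dim genes. Ifng was 9.58, 8.87 and 9.75 in the IFNg arrays and 13.57, 13.57 and 13.53 in the IL6 arrays. Il6 was 5.66, 5.83 and 8.03 in the IL6 arrays and 4.54, 4.76 and 6.83 in the IFNg arrays, so it was not lower in the arrays labelled as lacking it. The deleted part of either gene is not in the labels, and a probe set that lies elsewhere checks nothing. Zap70, which carries a point mutation in SKG mice, was 10.85, 11.05 and 10.84 in SKG and 11.67, 11.63 and 11.24 in BALB arrays. The CD4 T cell markers Cd3d, Cd3e, Cd3g and Cd4 were above the detection filter (the 40th percentile of all probe sets) in both comparisons, and 0 of the 4 passed the test in either. Trimmed mean intensity per array ran from 161 to 233.

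In SKG cells, 32 of the 70 respiratory chain genes tested were higher than in BALB cells and 1 was lower (limma, adjusted p under 0.05). Of all 12073 genes tested, 15.8% were called higher and 11.8% lower. The 5 members under the detection filter were Cox4i2, Cox6b2, Cox7b2, Cox8b and Ndufa4l2. The members' median log2 difference was 0.41, against 0.06 over all genes, and 56 of 70 differences were above 0, against 54.7% of all genes. In 40 members every SKG array lay above every BALB array and in 3 every one lay below, against 24.9% and 18.4% of all genes. A 2-fold or larger rise was called for 9 members, all of complex I, and for 5.97% of all genes. With the replicate number as a block 39 members were higher and 2 lower, while the shares of all genes became 19.9% and 14.7%. Without SKG replicate 1 the count of higher members was 20 and without any normalization between arrays 16, when 9.25% and 9.36% of all genes were called higher. In whole-RNA samples of a sorted population, a difference in the kinds of cells present and a difference in RNA per cell cannot be told apart.

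**Figure D1:**
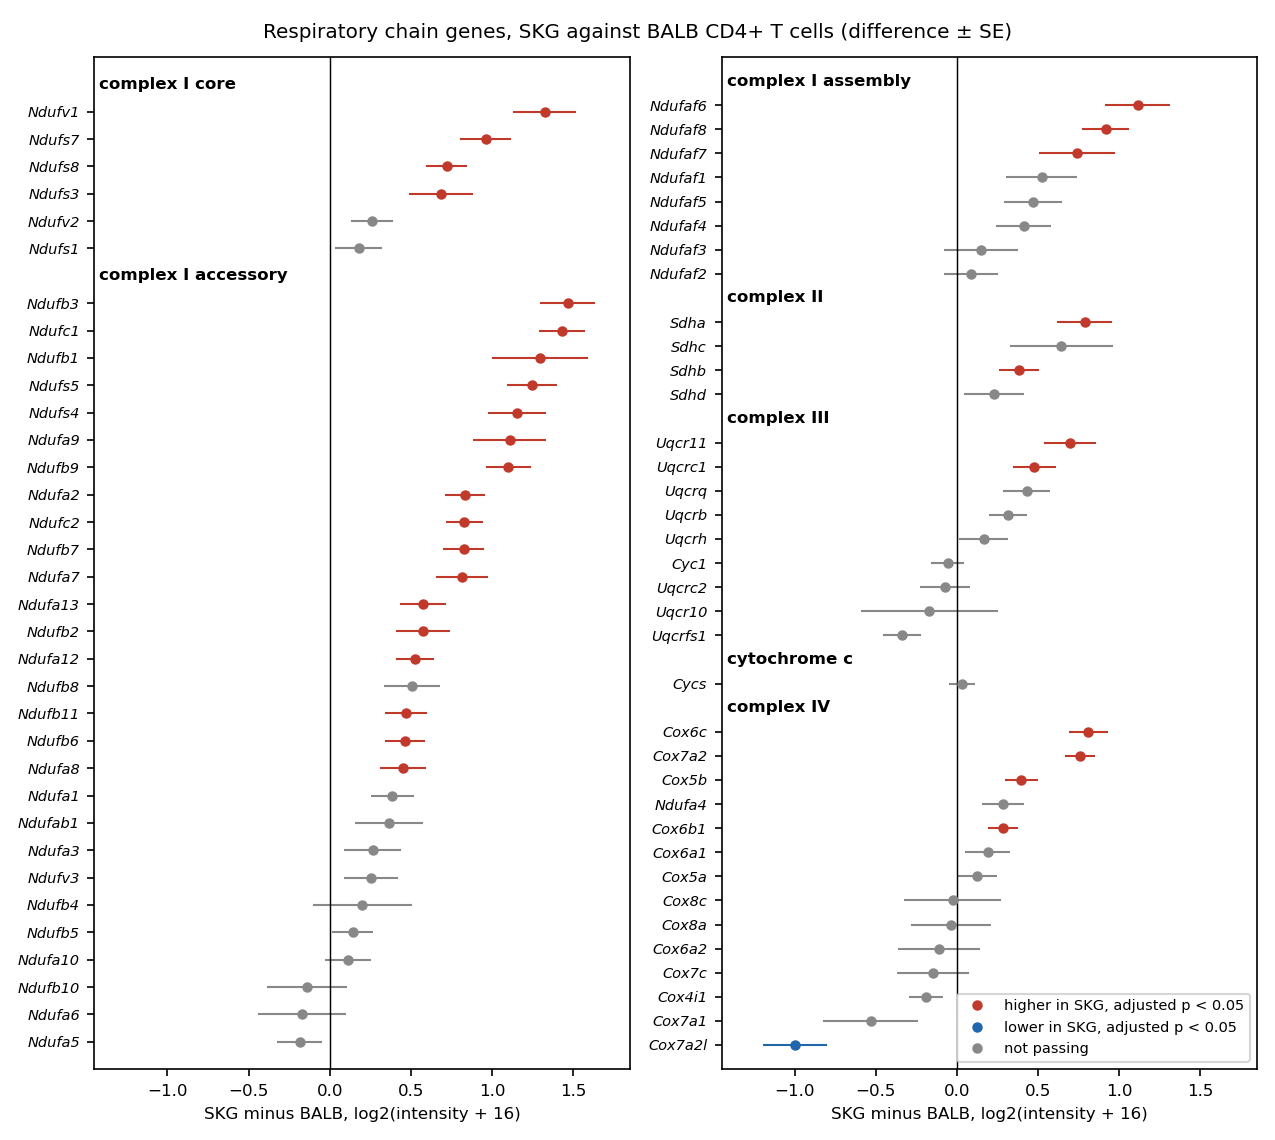
Difference between SKG and BALB cells in log2(intensity + 16) for the 70 tested respiratory chain genes, by complex; points are the difference of the means of 3 arrays each and bars its SE. The points of complex I lie mostly right of 0, up to 1.47 for Ndufb3, those of complexes III and IV lie on both sides, and Cox7a2l at -1.0 is the only gene called lower.

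Complex I, the NADH dehydrogenase, held most of these rises. Of its 42 genes 24 rose (57.1%) and 0 fell, with a median difference of 0.52. Outside complex I 8 of 28 tested genes rose (28.6%) and 1 fell, with a median of 0.18. These counts, and those by complex below, are to be set against 15.8% of all genes higher and 11.8% lower. The difference between complexes was not tested.

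Among the core subunits, which carry the flavin and iron-sulphur centres, 4 of 6 rose (median 0.70). Ndufv1, which holds the flavin that takes electrons from NADH, was 10.55, 10.60 and 10.08 in SKG and 9.24, 9.23 and 8.78 in BALB arrays. Every SKG array lay above every BALB array, and replicate 3 was the lowest of its group on both sides. The difference was 1.33 ± 0.19 (SE, limma adjusted p = 0.0017). Ndufs7, an iron-sulphur subunit next to the ubiquinone site, rose by 0.96 ± 0.16 and its neighbour Ndufs8 by 0.72 ± 0.12. Ndufs3 rose by 0.69 ± 0.20, and its call was lost without SKG replicate 1 (adjusted p = 0.085) or 2 (0.11). Ndufv2 and Ndufs1, also iron-sulphur subunits, differed by 0.26 and 0.18 and did not pass.

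Of the 28 accessory subunits, which surround the core and are needed for its assembly and stability, 17 rose and 0 fell (median 0.52). Ndufc1, a small subunit of the membrane arm, was 10.39, 10.30 and 10.54 in SKG and 8.91, 9.10 and 8.92 in BALB arrays. Every SKG array lay more than 1 log2 unit above every BALB array, and the difference of 1.43 ± 0.14 (SE) had the smallest p of all members (limma adjusted p = 0.00031). Ndufb3, another membrane arm subunit, was 9.91, 9.65 and 9.67 against 8.28, 8.48 and 8.06. At 1.47 ± 0.17 (limma adjusted p = 0.00058) this was the largest difference among the members, 2.77-fold on this scale. Ndufs5, which lies on the side of the membrane arm facing the intermembrane space, was 7.98, 8.03 and 7.97 in SKG and 6.85, 6.65 and 6.74 in BALB arrays, a difference of 1.25 ± 0.15 (adjusted p = 0.00084). Its 3 SKG values lay close together, and the groups did not overlap. Ndufb9 was 10.73, 10.57 and 10.85 against 9.48, 9.61 and 9.76, again without overlap and with a difference of 1.10 ± 0.14.

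Other accessory subunits with small p-values were Ndufc2 (0.83 ± 0.12), Ndufa2 (0.84 ± 0.12), Ndufb7 (0.83 ± 0.13) and Ndufs4 (1.15 ± 0.18), the last a subunit whose loss in mice causes an encephalopathy. Ndufb1 had a wider spread in SKG, at 9.31, 8.82 and 8.08 against 7.22, 7.38 and 7.72 in BALB arrays. Replicate 3 of both groups came close together, and the difference was 1.30 ± 0.30 (limma adjusted p = 0.012). Ndufa9, close to the ubiquinone site, rose by 1.11 ± 0.22. The 11 accessory subunits that did not pass ran from -0.18 (Ndufa5) to 0.51 (Ndufb8, adjusted p = 0.055). With the replicate block Ndufb8, Ndufa1 and Ndufab1, the mitochondrial acyl carrier protein, were also called higher (adjusted p = 0.023, 0.0075 and 0.042).

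The remaining 7 accessory subunits called higher differed by 0.45 to 0.81, and 6 of them lost the call when 1 array was left out. Ndufa7 (0.81 ± 0.16) kept it, with a limma adjusted p of 0.051 under the median of its probe sets. Ndufa12 (0.53 ± 0.12) lost it without SKG replicate 1 (adjusted p = 0.054). Ndufa13, also known as a cell death regulator (0.58 ± 0.14), lost it without SKG replicate 1 (0.066) and BALB replicates 1 (0.081) and 2 (0.062). Ndufb11 (0.47 ± 0.13) lost it without the same 3 arrays (0.066, 0.091 and 0.086). For Ndufb6 (0.46 ± 0.13) the arrays were SKG replicates 1 (0.084) and 2 (0.11) and BALB replicates 1 (0.093) and 2 (0.058). For Ndufb2 (0.57 ± 0.17) they were SKG replicates 1 (0.055), 2 (0.072) and 3 (0.054) and BALB replicates 1 (0.12) and 2 (0.087). The median over its 3 probe sets gave 0.29 (limma adjusted p = 0.37). For Ndufa8 (0.45 ± 0.14) they were SKG replicates 1 (0.12) and 2 (0.16) and BALB replicates 1 (0.12), 2 (0.070) and 3 (0.081).

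Of the 8 assembly factors, which help build complex I and are no part of the finished enzyme, 3 rose. Ndufaf8 was 9.91, 9.85 and 9.77 in SKG and 8.78, 9.10 and 8.89 in BALB arrays, a difference of 0.92 ± 0.15 (limma adjusted p = 0.0025). Ndufaf6 rose by 1.12 ± 0.20 and the methyltransferase Ndufaf7 by 0.74 ± 0.23. The Ndufaf7 call was lost without SKG replicate 1 (adjusted p = 0.15) or 2 (0.12) and without BALB replicate 2 (0.074) or 3 (0.089). The other 5 lay between 0.09 and 0.52 and did not pass; with the replicate block Ndufaf1, the highest of them, was called higher (adjusted p = 0.044).

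Of complex II, succinate dehydrogenase, Sdha and Sdhb rose. Sdha, the flavoprotein that oxidises succinate, was 11.20, 11.20 and 10.84 in SKG and 10.42, 10.47 and 9.99 in BALB arrays, a difference of 0.79 ± 0.17 (limma adjusted p = 0.0092). Its groups did not overlap, but its probe sets disagreed, from -0.53 to 0.79, and their median differed by 0.06 (adjusted p = 0.82). Sdhb, the iron-sulphur subunit, was 10.81, 11.04 and 11.09 against 10.52, 10.68 and 10.59, a difference of 0.38 ± 0.12 (adjusted p = 0.047). That call was lost without any 1 of the 6 arrays, with adjusted p of 0.055 (without SKG replicate 1), 0.16 (SKG 2), 0.076 (SKG 3), 0.16 (BALB 1), 0.090 (BALB 2) and 0.069 (BALB 3). The membrane anchors Sdhc and Sdhd differed by 0.64 ± 0.32 and 0.23 ± 0.18 without passing, and Sdhc passed with the replicate block (adjusted p = 0.038).

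In complex III, the cytochrome bc1 complex, 2 of 9 genes rose and the median was 0.16. The share higher, 22.2%, was not far from the 15.8% of all genes. Differences above 0 made up 55.6%, against 54.7% of all genes. Uqcr11, its smallest subunit, was 9.01, 8.86 and 9.20 in SKG and 8.46, 8.24 and 8.27 in BALB arrays, a difference of 0.70 ± 0.16 (limma adjusted p = 0.012, and 0.051 without BALB replicate 2). Uqcrc1, a core protein, rose by 0.48 ± 0.13 (adjusted p = 0.028). Its adjusted p was 0.070 and 0.11 without SKG replicates 1 and 2, and 0.071 and 0.051 without BALB replicates 1 and 3. Of the subunits that carry its haem and iron-sulphur centres, the members Cyc1 and Uqcrfs1 did not pass. Cyc1, cytochrome c1, was 11.49, 11.61 and 11.61 against 11.74, 11.55 and 11.59, a difference of -0.06 ± 0.10. Uqcrfs1, the Rieske iron-sulphur protein, was 11.69, 11.79 and 12.06 in SKG and 12.23, 12.22 and 12.11 in BALB arrays, a difference of -0.34 ± 0.12 (adjusted p = 0.057). All SKG arrays lay below all BALB arrays for Uqcrfs1, and with the replicate block it was called lower (adjusted p = 0.046), while Uqcrq and Uqcrb were called higher (0.036 and 0.012).

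Cycs, the soluble carrier between complexes III and IV and a trigger of apoptosis when released, was 13.40, 13.27 and 13.17 in SKG and 13.21, 13.29 and 13.23 in BALB arrays. The groups overlapped and the difference was 0.03 ± 0.08 (limma adjusted p = 0.82).

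Complex IV, cytochrome c oxidase, had 4 of 14 tested genes higher (28.6%) and 1 lower, with a median of 0.05. Differences above 0 made up 50%, against 54.7% of all genes. Cox7a2, the form of subunit VIIa made in most tissues, was 12.46, 12.44 and 12.56 in SKG and 11.62, 11.75 and 11.80 in BALB arrays, a difference of 0.76 ± 0.09 (limma adjusted p = 0.00084). Cox7a2l, its relative that joins complex III to complex IV in supercomplexes, went the other way. It was 10.91, 10.92 and 11.68 in SKG and 12.28, 12.10 and 12.13 in BALB arrays, a difference of -1.0 ± 0.20 (adjusted p = 0.0061). Neither gene's groups overlapped, and SKG replicate 3 was the highest of the SKG arrays for both. The 3 probe sets of Cox7a2l that passed the filter gave -1.11 to -1.0, and the 2 of Cox7a2 gave 0.76 to 0.95.

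Cox6c rose by 0.81 ± 0.12, Cox5b by 0.40 ± 0.10 and Cox6b1 by 0.28 ± 0.09 (limma adjusted p = 0.0019, 0.018 and 0.048). The Cox5b call was lost without SKG replicate 1 (adjusted p = 0.065) or 2 (0.075). That of Cox6b1 was lost without SKG replicate 1 (0.15), 2 (0.056) or 3 (0.078) and without BALB replicate 1 (0.094), 2 (0.11) or 3 (0.098). Cox4i1, the common form of subunit IV, differed by -0.19 ± 0.10, Cox6a1 by 0.19 ± 0.14, Cox8a by -0.04 ± 0.25 and Ndufa4, now counted as a subunit of complex IV, by 0.29 ± 0.13. None of these passed. Of the forms known from lung, muscle, heart or testis, Cox4i2, Cox6b2, Cox7b2 and Cox8b were under the filter. Cox7a1 (-0.53 ± 0.29), Cox6a2 (-0.11 ± 0.25) and Cox8c (-0.03 ± 0.30) were tested and did not pass.

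**Figure D2:**
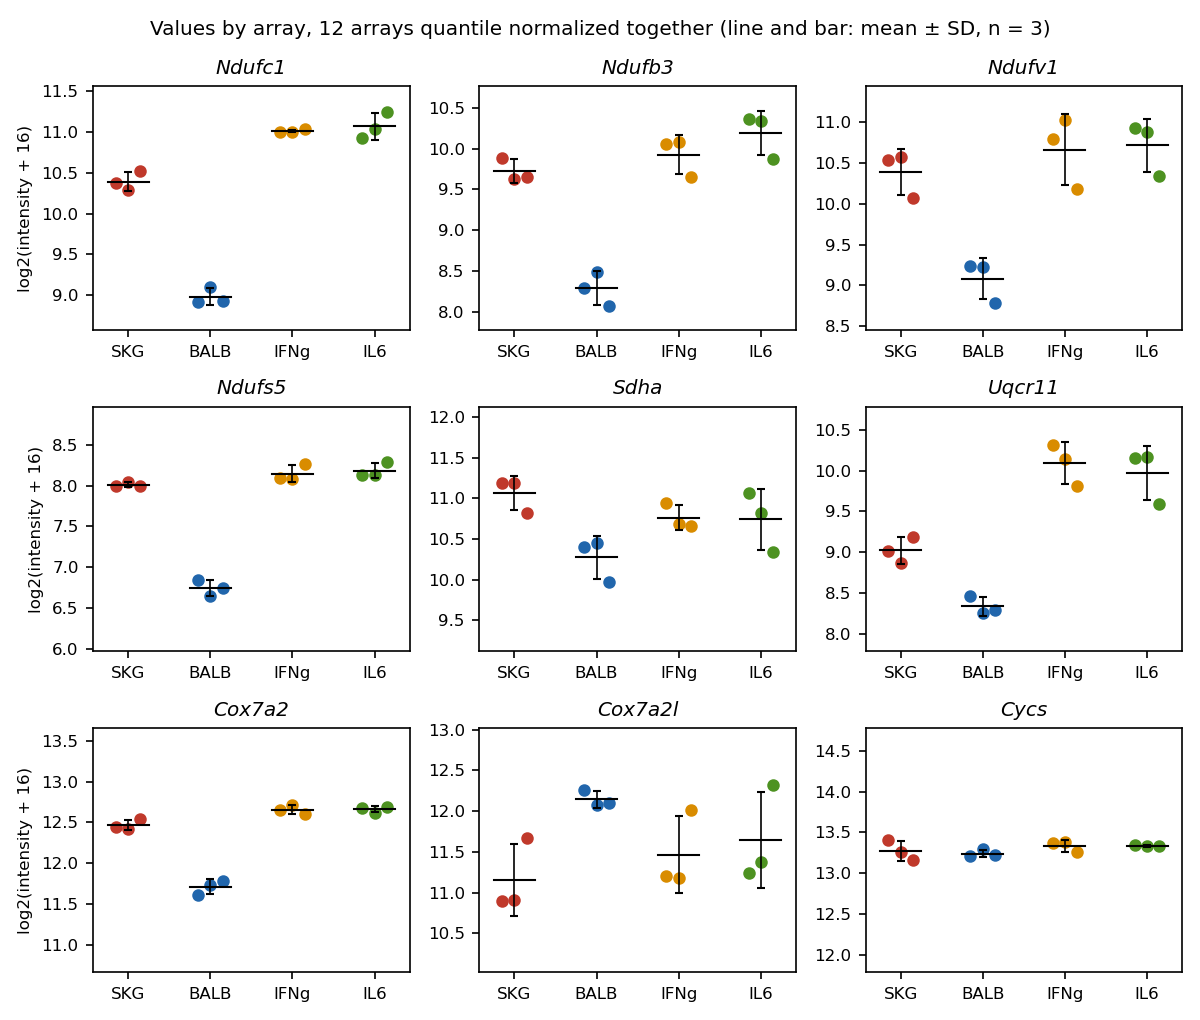
Values of 9 respiratory chain genes by array in log2(intensity + 16), with the 12 arrays normalized together; points are arrays, lines the mean and bars the SD of 3 arrays. BALB arrays are the lowest for Ndufc1, Ndufb3, Ndufv1, Ndufs5, Uqcr11 and Cox7a2 and the highest on average for Cox7a2l, and all groups lie together for Cycs.

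Different probe sets of a gene can read different ends or transcript forms. Among the passing members with more than 1 probe set above the filter, all probe sets had the same sign in 14 of 20. Besides Sdha, the disagreeing genes were Cox5b (-0.33 to 0.46), Ndufa12 (-0.33 to 0.64), Ndufb2 (-0.29 to 0.57), Ndufs4 (-0.00 to 1.15) and Ndufs8 (-0.18 to 0.72). With the median of its probe sets the Ndufs4 difference became 0.48 (limma adjusted p = 0.056). For Ndufc1, Ndufv1, Ndufb9 and Ndufs7 the probe sets gave 1.28 to 1.43, 1.09 to 1.33, 0.94 to 1.10 and 0.91 to 0.96. Ndufb3 and Ndufb1 had 1 probe set each. Of the members called higher only with the replicate block, Uqcrq (-0.67 to 0.43) and Ndufab1 (-0.78 to 0.70) also had probe sets of both signs.

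The sequence upstream of 60 members was available from RefSeq (assembly GRCm38.p6), as 250 bases before to 50 after the annotated start. Both strands were searched for 3 letter strings, those of nuclear respiratory factor 1 (NRF1, read as GCGCA, any base and GCGC), of ETS factors such as GABP (CCGGAAG) and of YY1 (ATGGCGGC), which are known to act at genes of mitochondrial proteins. The NRF1 string was found for 11 of the 60 members (18.3%) and for 5.19% of 27025 genes, the ETS string for 13 (21.7% against 9.93%) and the YY1 string for 6 (10.0% against 2.61%). The 27025 are all genes with an upstream sequence, whether or not tested here, and were not matched to the members in expression or base composition. Of tested members with the NRF1 string 4 of 11 rose, with the ETS string 8 of 13 and with the YY1 string 5 of 6. Of those without each string 24 of 46, 20 of 44 and 23 of 51 rose. A match is a description of these letters and no evidence that a factor binds. The 120 bases before the start follow for some of the members called higher or lower, in the direction of transcription with string matches in capitals. Ndufs5, Sdha and Ndufaf8 hold matches there, while Ndufc1, Ndufb3, Cox7a2 and the oppositely changed Cox7a2l hold none. Members that did not pass but hold matches in this stretch, such as Cox6a1, Ndufb4 and Sdhd, are not shown.
Ndufs5, chr4:123718187-123718306, minus strand: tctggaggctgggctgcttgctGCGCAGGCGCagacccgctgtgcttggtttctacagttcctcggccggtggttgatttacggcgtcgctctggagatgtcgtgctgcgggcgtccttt
Sdha, chr13:74350241-74350360, minus strand: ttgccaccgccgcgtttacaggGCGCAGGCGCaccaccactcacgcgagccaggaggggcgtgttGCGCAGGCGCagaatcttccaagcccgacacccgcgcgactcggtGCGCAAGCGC
Ndufaf8, chr11:120098814-120098933, plus strand: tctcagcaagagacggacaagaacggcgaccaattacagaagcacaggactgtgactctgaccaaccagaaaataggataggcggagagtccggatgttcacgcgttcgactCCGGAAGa
Ndufc1, chr3:51408956-51409075, minus strand: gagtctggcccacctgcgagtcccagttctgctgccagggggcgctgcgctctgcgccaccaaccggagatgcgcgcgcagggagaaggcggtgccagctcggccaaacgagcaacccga
Ndufb3, chr1:58586277-58586396, plus strand: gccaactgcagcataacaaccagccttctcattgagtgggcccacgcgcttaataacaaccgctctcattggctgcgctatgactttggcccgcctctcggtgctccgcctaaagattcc
Cox7a2, chr9:79759854-79759973, minus strand: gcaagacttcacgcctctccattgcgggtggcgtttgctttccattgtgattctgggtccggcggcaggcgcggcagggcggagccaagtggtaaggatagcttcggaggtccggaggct
Cox7a2l, chr17:83514334-83514453, minus strand: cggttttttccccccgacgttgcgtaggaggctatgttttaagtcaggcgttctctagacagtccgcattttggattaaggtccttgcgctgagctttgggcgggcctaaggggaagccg
Sdha holds 3 matches of the NRF1 string in this stretch, Ndufs5 1, and Ndufaf8 1 of the ETS string next to its start.

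Other genes of mitochondrial energy metabolism were read from lists of genes that are no members, to be set against the 15.8% of all genes called higher and 11.8% called lower. The genes named in each list are those with the smallest p. Of 18 tested genes of ATP synthase 7 rose and 0 fell (38.9% higher, median 0.39), among them the coupling factor subunit Atp5j (1.32) and the gamma subunit Atp5c1 (0.74). Of 11 assembly factors of complex IV 4 rose (36.4%), the copper chaperone Cox17 (1.11), Surf1 (0.95), Cox16 (0.73) and the haem A synthase Cox15 (1.31). Of 9 assembly factors of complexes II and III 2 rose, Uqcc2 (1.18) and Sdhaf2 (0.69), and 2 fell, Uqcc3 (-0.90) and Ttc19 (-0.64). Of 13 genes of the citric acid cycle 2 rose, Suclg2 (1.29) and Idh3a (0.64), and Dlst fell (-0.47), so that the share higher, 15.4%, was near that of all genes.

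Of 76 genes of the mitochondrial ribosome, which translates the subunits coded by the mitochondrial genome, 27 rose (35.5%) and 1 fell (median 0.34), among them Mrpl23 (1.47) and Mrpl51 (1.04). Of 15 regulators of mitochondrial transcription, replication and biogenesis 3 rose and 3 fell (median -0.02), a share of 20.0% higher, not far from that of all genes. Tfb1m, a methyltransferase of mitochondrial ribosomal RNA, rose by 1.21, while Polg2, a subunit of the mitochondrial DNA polymerase, fell by 1.10, the coactivator Ppargc1b by 0.68 and Myc by 0.55. These calls are from the same limma fit, with adjusted p from 0.00037 to 0.041, and the lists were not tested as sets.

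RNA quality and markers of other cells also moved between these groups, and their part in the differences was not tested. The ratio of the 3' to the 5' probe set signal of beta-actin was 2.12, 1.93 and 2.63 in SKG and 3.04, 2.95 and 3.98 in BALB arrays, so BALB was higher within each replicate number. For Gapdh this ratio was 3.03, 2.57 and 2.90 against 3.28, 3.03 and 2.86. Cd8b1, a CD8 T cell marker, fell in SKG (-2.48, limma adjusted p = 0.0035), and its partner Cd8a differed by 0.81 the other way (adjusted p = 0.072). Of the 15 other markers tested, Zbtb46 of dendritic cells (0.75) and Derl3 of plasma cells (0.80) were higher. The dendritic marker Itgax (0.12) and the plasma cell markers Sdc1 (-0.64) and Jchain (1.01) did not pass, and Flt3 was not tested. With the replicate block Zbtb46 missed the threshold (limma adjusted p = 0.055) and the macrophage marker Cd68 was called lower (-0.61, adjusted p = 0.025). The other macrophage markers, Csf1r (-0.40), Adgre1 (-0.05) and Lyz2 (0.37), did not pass in either fit. Summed over the list, CD8 markers ran from 5.93 to 7.30 in SKG and from 8.06 to 8.15 in BALB arrays, and CD4 T cell markers from 11.56 to 12.11 and from 11.13 to 11.65. Cd3g differed by 1.06 (adjusted p = 0.051, and 0.00055 with the replicate block).

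The arrays numbered alike gave the same direction. The members' median difference, SKG over BALB, was 0.39 for replicate 1, 0.36 for replicate 2 and 0.45 for replicate 3, with 59, 53 and 59 of 70 members higher in SKG. Over all genes 53.3% to 55.3% were higher in these pairs. In replicate 1 the BALB cells had no folate receptor 4 sort, and the part of that sort was not tested. Without BALB replicate 1, 24 of 70 members were called higher in SKG, when 10.4% of all genes were. Across the 70 members the difference had little relation to the expression level (Spearman rho = -0.11, a description over genes of the same arrays).

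In the transfer experiment 0 of 71 tested respiratory chain genes were higher or lower in IFNg than in IL6 arrays (limma, adjusted p under 0.05). An unadjusted p under 0.05 was seen for 0 of the 71, against 532 of all 12262 genes tested. Few genes were called at all, 0.0652% higher and 0.0489% lower of 12262. No other tool was run on these intensities. The members' median difference was -0.00 and that of all genes 0.00. Differences ran from -0.26 (Ndufb3) to 0.48 (Uqcr10, a small subunit of complex III). With the replicate block the counts stayed 0 and 0, while 0.775% and 1.01% of all genes were called.

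The 5 members with the smallest p were Cox8c (0.40 ± 0.18), Ndufb8 (0.24 ± 0.12), Ndufb1 (0.35 ± 0.18), Cox6a2 (0.45 ± 0.23) and Uqcrq (0.32 ± 0.20), each with a limma adjusted p of 1.0. Ndufb8 was 10.83, 11.05 and 10.81 in IFNg and 10.67, 10.71 and 10.58 in IL6 arrays, which do not overlap. Non-overlap of this kind, IFNg above, was seen in 2 members and IFNg below in 1, against 5.41% and 4.53% of all genes.

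Some genes that differed between SKG and BALB differed little here and others more, none passing. Ndufb3 was 10.04, 10.06 and 9.63 in IFNg and 10.34, 10.32 and 9.86 in IL6 arrays, at -0.26 ± 0.20 the most negative difference of the members. Ndufb1 was 9.03, 9.50 and 9.34 against 8.88, 9.09 and 8.84 (0.35 ± 0.18). The groups overlapped for both genes. Ndufc1 was 10.99, 10.98 and 11.01 in IFNg and 10.91, 11.02 and 11.24 in IL6 arrays, a difference of -0.06 ± 0.12. Cox7a2 was 12.63, 12.68 and 12.58 against 12.66, 12.60 and 12.66 (-0.01 ± 0.07). Cox7a2l was 11.19, 11.16 and 11.98 against 11.22, 11.36 and 12.31 (-0.19 ± 0.33), so replicate 3 was the highest in both transfer groups, as it was in SKG. The groups overlapped for these 3 genes too.

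Replicate 3 of the transfer groups stood apart in RNA quality. The beta-actin ratio was 3.81 in IFNg replicate 3 and 5.13 in IL6 replicate 3, and 1.60 to 1.67 in the other transfer arrays; for Gapdh the values were 7.99 and 9.33 against 2.42 to 2.84. Of the markers of other cells 0 passed, and with the replicate block Derl3 was higher in IFNg arrays (0.98, limma adjusted p = 0.021). Summed over the list, neutrophil markers varied between arrays of a group, from 5.99 to 7.82 in IFNg and from 5.52 to 10.19 in IL6. Without replicate 3 of both groups 0 members passed as well, and the median difference was 0.03, while 2.14% of all genes were called higher and 1.97% lower.

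All 70 members tested in both comparisons differed by less than 0.5 between the transfer groups, while 30 differed by more than 0.5 between SKG and BALB. The size was larger between SKG and BALB for 63 of the 70. Over all genes too, more were called between SKG and BALB (15.8% higher, 11.8% lower) than between the transfer groups (0.0652% and 0.0489%). Shares of all genes for the counts of 70, 30 and 63 were not computed, so these counts do not set the members apart. The median SE was 0.15 between SKG and BALB and 0.16 between the transfer groups. The SE of single genes differed either way, such as Cox7a2l (0.20 and 0.33) and Ndufb1 (0.30 and 0.18). A direct test of the difference of differences over all 12 arrays (SKG minus BALB, minus IFNg minus IL6) passed for 14 of 71 members, all of them positive, against 4.86% positive and 3.34% negative over 12176 genes.

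The 14 were Ndufc1 (1.47 ± 0.18), Ndufb3 (1.70 ± 0.26), Ndufv1 (1.36 ± 0.34), Ndufs5 (1.30 ± 0.21), Ndufaf6 (1.24 ± 0.26), Ndufb9 (1.0 ± 0.18), Ndufs7 (1.0 ± 0.26), Ndufaf8 (0.91 ± 0.19), Ndufa2 (0.83 ± 0.16), Ndufc2 (0.82 ± 0.15), Ndufb7 (0.81 ± 0.17), Cox7a2 (0.76 ± 0.12), Ndufa7 (0.74 ± 0.21) and Cox6c (0.73 ± 0.18). Of these, 12 belong to complex I, and all 14 had risen in SKG. The limma adjusted p ran from 0.00070 for Ndufc1 to 0.045 for Ndufa7. Leaving out each array in turn ended the call for 4 of them, Cox6c without 6 of the 12 arrays (adjusted p of 0.058 to 0.079), Ndufa7 without 9 (0.050 to 0.12), Ndufs7 without 6 (0.051 to 0.085) and Ndufv1 without 7 (0.051 to 0.084). With the median of probe sets the call ended for Ndufa7 (0.41, adjusted p = 0.55), Ndufb9 (0.052), Ndufc2 (0.075) and Ndufs7 (0.066). With the replicate block 31 members were positive and 1 negative, with 15.3% and 10.3% of all genes. Without normalization between arrays 4 members passed, with 2.32% of all genes called positive and 1.28% negative.

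**Figure D3:**
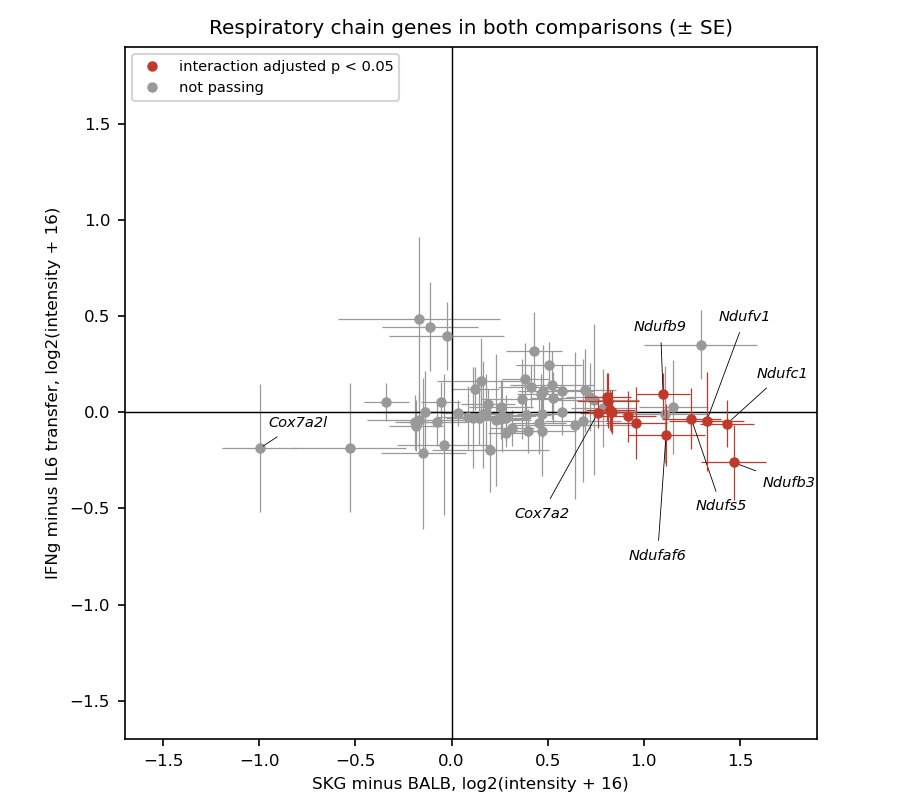
Difference SKG minus BALB (horizontal) against IFNg minus IL6 (vertical) for the 70 respiratory chain genes tested in both, in log2(intensity + 16) with SE bars; red points passed the test of the difference of differences. The points spread from -1.0 to 1.47 horizontally and from -0.26 to 0.48 vertically.

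Set side by side with the 12 arrays normalized together, BALB was the lowest of the 4 groups by mean for 56 of 71 members (78.9%), against 42.8% of all genes. SKG was lowest for 11, IFNg for 2 and IL6 for 2. Ndufc1 averaged 8.98 ± 0.10 (SD, n = 3) in BALB, 10.39 ± 0.12 in SKG, 11.01 ± 0.02 in IFNg and 11.07 ± 0.16 in IL6 arrays. BALB and SKG were each apart from their neighbours in this order, while the transfer groups overlapped. Ndufs5 averaged 6.74 ± 0.10, 8.01 ± 0.03, 8.15 ± 0.10 and 8.18 ± 0.09 in the same order, with SKG and the transfer groups close to each other. Sdha was highest in SKG (11.06 ± 0.21) and lowest in BALB (10.27 ± 0.27), with 10.76 ± 0.16 and 10.74 ± 0.37 in IFNg and IL6 arrays. Age, tissue, host and labelled stimulation all differ between these pairs of groups, so levels across them are values only.

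The median over 71 members was 10.37, 10.28 and 10.35 in SKG, 9.67, 9.71 and 9.75 in BALB, 10.85, 10.91 and 10.52 in IFNg and 10.90, 10.82 and 10.41 in IL6 arrays. BALB thus lay below every other array, and replicate 3 was the lowest of each transfer group. In IFNg and IL6 replicate 3 the beta-actin ratios were 3.81 and 5.13, and in the other transfer arrays 1.60 to 1.67. Both replicate 3 medians lay above those of the BALB arrays, whose ratios were 2.95 to 3.98. These groups also differ in age, tissue, host and labelled stimulation, and the part of RNA quality was not tested. The median over all genes tested was 7.09 to 7.14 in BALB, 7.23 to 7.27 in SKG and 7.30 to 7.45 in the transfer arrays.

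**Figure D4:**
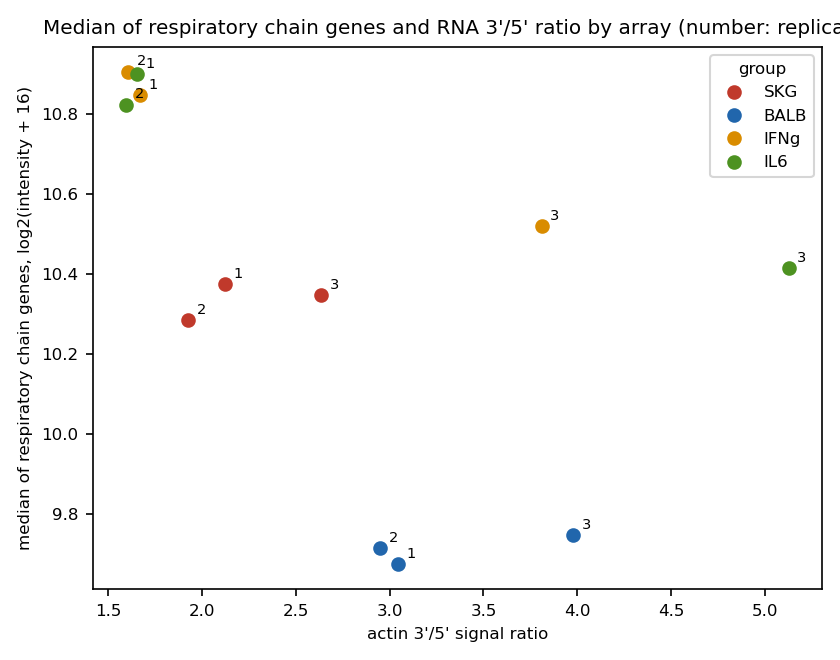
Median of 71 respiratory chain genes in log2(intensity + 16) against the beta-actin 3'/5' signal ratio, 1 point per array with its replicate number, 12 arrays normalized together. BALB arrays lie at 9.67 to 9.75 with ratios of 2.95 to 3.98. The replicate 3 transfer arrays lie at 10.52 and 10.41 with ratios of 3.81 and 5.13, and the other transfer arrays at 10.82 to 10.91 with ratios of 1.60 to 1.67.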

How the data were processed

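The authors deposited a linear intensity for each of 45101 probe sets (64 of them controls) on every array; what they did to compute them is not given in the sources used here, and RNA was labelled with biotin by in vitro transcription per the labels' protocols. Array medians ran from 15.7 to 27.6, a ratio of 1.76, above the 1.5 at which quantile normalization within each comparison was to be used. Probe sets listing 1 gene numbered 34945, several 932 and none 9160, and symbols were updated by gene ID to GRCm38.p6 for 34741. The 75 members rest on 153 probe sets, and 10 more that name several genes were left out. Genes at or above the 40th percentile by mean were tested on log2(intensity + 16) by limma's moderated test (version 3.58.1, R 4.3.3, trend by intensity), two-sided, and p-values were adjusted by Benjamini-Hochberg over every gene tested. The test of the difference of differences used all 12 arrays. The number of arrays limits the precision. Alternatives changed the added constant, filter, normalization, probe set, trend, block, weights or arrays used.

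The members, the gene lists and the naming rule were chosen with earlier results of these data known. Named are members with the smallest p (up to 12 per direction), the largest and smallest differences, the brightest, the isoform groups, and up to 4 passing genes of each other list. Further members are named to account for each complex, chosen after their values were seen.

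Replicate numbers come from the labels. Deviations from the group mean of arrays with the same number correlated at 0.13, 0.20 and 0.33 (SKG and BALB) and 0.46, 0.45 and 0.70 (transfer), so the number was used as a block in an alternative fit. Replicates 1 and 2 correlated as much crosswise (0.17 and 0.17, 0.44 and 0.41), so the block acts mainly on replicate 3. The scripts were tested on simulated data.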

Additional observations from a re-analysis of the deposited data

Results flagged for a closer look

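For 14 members the difference between SKG and BALB cells differed from that between IFNg and IL6 transfer cells by a direct test over all 12 arrays (limma interaction, adjusted p under 0.05). The differences of differences were 1.70 for Ndufb3, 1.47 for Ndufc1, 1.36 for Ndufv1, 1.30 for Ndufs5, 1.24 for Ndufaf6, 1.0 for Ndufb9, 1.0 for Ndufs7, 0.91 for Ndufaf8, 0.83 for Ndufa2, 0.82 for Ndufc2, 0.81 for Ndufb7, 0.76 for Cox7a2, 0.74 for Ndufa7 and 0.73 for Cox6c. In all 14 BALB had the lowest mean of the 4 groups. Since all 14 had also risen in SKG, BALB lying below SKG follows from those calls. The share among other genes passing this test was not computed. The pairs of groups also differ in age, tissue, host and labelled stimulation, which cannot be told apart. With 3 arrays a group, single arrays were not tested as outliers.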

How the results depend on the processing

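With other settings 16 (no normalization between arrays) to 43 (batch block) members were higher in SKG, when 9.36% and 23.0% of all genes were called higher. With 1 array left out the count was 20 (without SKG replicate 1) to 32 (without SKG replicate 3), when these shares were 9.25% and 18.2%. Of all genes 6.54% (no filter) to 18.3% (replicates 1 and 2 only) were called lower with other settings. With 1 array left out 7.23% to 14.2% were. The count lower in SKG, 1 here, was 2 with a 60th percentile filter, the median of probe sets, the replicate block, all 12 arrays in one fit or a batch block, 4 with replicates 1 and 2 only or array weights, 0 without normalization, and 1 to 3 with 1 array left out. The median difference of 0.4054 was 0.4399 with an added constant of 1, 0.2896 without normalization, 0.3723 with the median of probe sets, 0.3613 with replicates 1 and 2 only, 0.3781 with array weights, and 0.3678 to 0.4401 with 1 array left out. The 14 differences of differences became 4 without normalization, 32 with the replicate block, 36 with the batch block, 36 with replicates 1 and 2 only and 33 with array weights. Of all genes 4.86% were called positive and 3.34% negative in the main fit, and 2.32% and 1.28% without normalization. These shares were 15.3% and 10.3% with the replicate block, and 17.8% and 12.1% with the batch block. They were 18.1% and 12.9% with replicates 1 and 2 only, and 17.5% and 12.7% with array weights. The cause of these changes was not tested. Of the 33 calls between SKG and BALB, 12 (Cox6c, Ndufa2, Ndufa9, Ndufaf6, Ndufaf8, Ndufb1, Ndufb3, Ndufb9, Ndufc1, Ndufs5, Ndufs7 and Ndufv1) held in all 19 alternatives, 20 with every array left out in turn, and 17 were lost without normalization. The replicate block, for 39 members higher and 2 lower, ended none of the 33, and beyond the calls given beside the results it changed no other call of a member in that comparison. The 0 calls between the transfer groups stayed 0 in all alternatives. No passing difference changed sign, but differences that did not pass did, such as that of Cox8a (-0.04, and 0.32 with the median of probe sets). The batch block (replicate 3 against 1 and 2), replicates 1 and 2 only and array weights were chosen after seeing the data.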
